A study of Mus musculus with 14 samples.

Results

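Granulosa cells (GCs) were compared gene by gene between a mouse model without functional leptin receptor (db/db) and one without leptin (ob/ob), to find where the mutation had opposite or unequal effects. The cells came from antral follicles. The members of the comparison were all 14 RNA-seq libraries of the series, and no library was left out. There were 4 libraries from db/db females, which lack a functional long form of the leptin receptor (strain B6.BKS(D)-Leprdb/J), and 4 from their lean littermate controls (CT db). Another 3 libraries came from ob/ob females, which lack functional leptin (strain B6.Cg-Lepob/J), and 3 from the lean littermate controls of that model (CT ob). All mice were kept on a chow diet until 12 weeks of age, and both mutations are germline, so every cell of the mouse carries them. The control columns of the count table are named as heterozygous, while the sample labels call these mice wild type, and which is right could not be decided. Each model has its own strain and littermates, so strain cannot be told apart from model, and whether each library came from a separate animal was not stated. The p-values below then measure only the spread between these libraries.

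GCs line the antral follicle, respond to follicle stimulating hormone, convert androgens to oestradiol and secrete inhibins and anti-Müllerian hormone, and their basal layer rests on a basement membrane rich in collagen IV and laminin. Leptin, made by adipose tissue, acts on the long receptor isoform through JAK and STAT proteins and in the brain restrains food intake and permits reproduction. Mice without either the hormone or its receptor become obese and infertile, and db/db mice, unlike ob/ob mice, have high circulating leptin. The comparison therefore asks whether loss of the ligand and loss of the receptor move the same genes in the follicle cell.

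The quantity tested was the mutant effect difference, defined as the ob effect (log2 of ob/ob over CT ob) minus the db effect (log2 of db/db over CT db). It equals the gap between the mutants (ob/ob over db/db, the mutant difference) minus the gap between the lean controls (CT ob over CT db, the control difference). A positive value means that the ob effect was the higher. Tests were edgeR quasi-likelihood tests in 1 fit of the 4 groups with TMM scaling, p-values were adjusted by Benjamini-Hochberg over the 12586 genes that passed the filter on low counts, and an adjusted p of 0.05 or less was called. Levels are given as CPM, the counts scaled to a common library size after TMM, in the order of the table's columns, and differences are on the log2 scale, given with ± their SE where an error stands. The db and ob effects each share a control group with the control difference, whereas the control and mutant differences share no library.

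Library totals were 2204686 to 8367593 counts, highest in ob/ob and lowest in db/db, and 3 counts amounted to 0.359 to 1.36 CPM. Lep (chromosome 6 from 29060216 to 29073877 in GRCm39) had at most 3 counts in any library and Lepr (chromosome 4 from 101574601 to 101676237) at most 17, so the mutated genes could not check the labels. CT ob library 3 stood apart, with 24.5% of its counts on an 18S ribosomal RNA gene and a mean correlation of 0.906 with the other CT ob libraries, and ob/ob library 2 correlated most closely with a db/db library (0.955). CT db library 2 likewise matched an ob/ob library best (0.950), and it was left out singly but not together with the others. The leading counts are also given without CT ob library 3 and ob/ob library 2. GC markers dominated all groups, with a summed level of 12 markers between 6245 and 17149 CPM. The summed level of 15 oocyte markers was 45.2 to 333 CPM in CT db, 64.7 to 116 in db/db, 121 to 1375 in CT ob and 250.5 to 1026 in ob/ob. That of 12 theca markers was 239 to 577, 321 to 1268, 174 to 578 and 292 to 328 CPM in the same order, and that of 13 stroma and smooth muscle markers 29.4 to 56.6, 26.5 to 97.3, 33.9 to 171 and 24.6 to 63.9 CPM. The 10 endothelial markers summed to 14.8 to 63.9 CPM in CT ob and to at most 14.1 CPM in the other groups. Macrophage and leukocyte markers reached 36.8 CPM at most, with Cd3e at 3 counts or fewer in all libraries. Surface epithelium markers summed to 30.9 to 78.4 CPM and erythrocyte markers, 5 of 6 of which had 3 counts or fewer in all libraries, to 3.14 to 82 CPM. In pooled cells, fewer cells of a type and less RNA per cell cannot be told apart.

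No gene reached the threshold for a mutant effect that differed between the models. Of the 12586 genes tested, 0 were called (0%) and the smallest adjusted p was 0.176, while 1021 genes had an unadjusted p under 0.05. The ob effect was higher than the db effect in 645 of those (5.12% of genes tested) and lower in 376 (2.99%). DESeq2 on the same genes called 72, of which 67 had the higher ob effect, limma-voom called 0, and edgeR without the filter on low counts called 329. For the terms of the difference, the db effect had 0 genes called (0%) and 750 with an unadjusted p under 0.05, and the ob effect had 1 (0.00795%), Fam81a, and 1511. With DESeq2 these were 21 and 86 genes called. Without CT ob library 3 and ob/ob library 2, 0 genes were called for the difference and 552 and 219 genes had an unadjusted p under 0.05 in the 2 directions.

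Opposite directions were the usual form of the difference among the genes with an unadjusted p under 0.05. Of the 645 genes with the higher ob effect, 588 were lower in db/db and higher in ob/ob than in their controls, 53 were higher in both mutants and 4 lower in both. Of the 376 with the lower ob effect, 337 were higher in db/db and lower in ob/ob, 34 were lower in both mutants and 5 higher in both. These genes were picked for a difference between the effects, which by itself favours unlike signs. Each of both effects had an unadjusted p under 0.05 in 141 genes, of which 60 were lower in db/db and higher in ob/ob, 10 the reverse, 42 higher in both mutants and 29 lower in both. Counted by libraries, every db/db library lay below every CT db library and every ob/ob library above every CT ob library for 50 genes (0.397%), the reverse held for 10 genes (0.0795%), and the libraries of both models lay apart in a shared direction for 19 genes upwards and 18 downwards. Protein-coding Zfp zinc finger genes made up 10 of the 50 and 0 of the 10, and 345 of the 12586 genes tested.

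**Figure D1:**
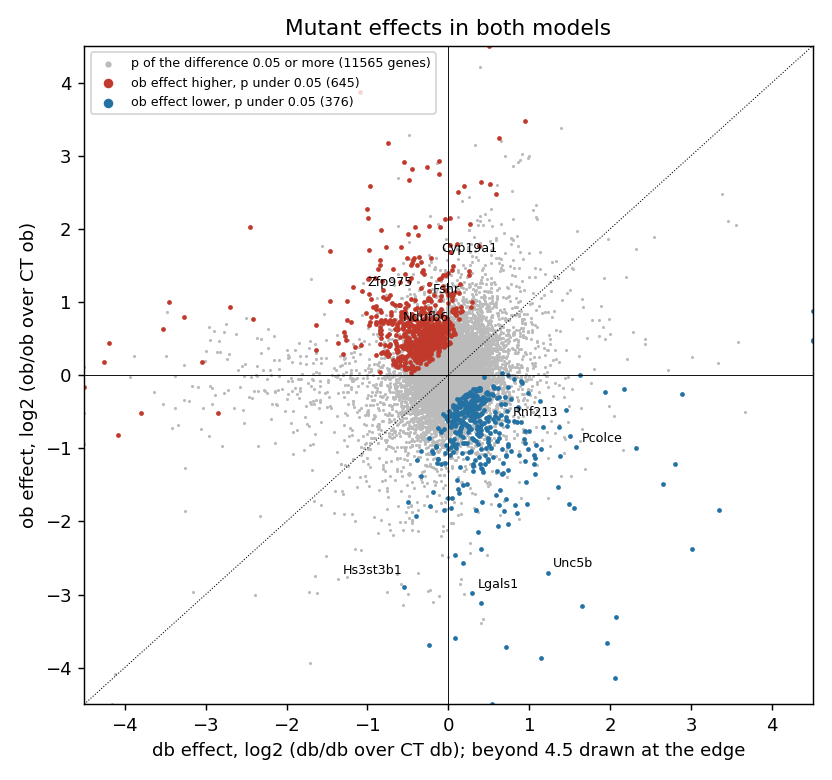
Effect of the mutation on each of 12586 genes, as log2 of db/db over CT db on the x axis and log2 of ob/ob over CT ob on the y axis, with values beyond 4.5 drawn at the edge and the dotted line marking equal effects. The 645 red genes (higher ob effect, unadjusted p under 0.05) lie mostly in the upper left and the 376 blue genes (lower ob effect) mostly in the lower right, and none passed the adjusted threshold.

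Ndufb6 (ENSMUSG00000071014, chromosome 4 from 40270581 to 40279468 in GRCm39), a subunit of mitochondrial complex I, had the smallest p. Its level was 83.9, 115, 115 and 105 CPM in the CT db libraries and 58.3, 70.9, 73.1 and 66.9 CPM in db/db, against 47.8, 55.9 and 56.6 CPM in CT ob and 88.1, 89.9 and 76.1 CPM in ob/ob. All db/db libraries lay below all CT db libraries, all ob/ob libraries lay above all CT ob libraries, and the means of both mutant groups lay between those of the control groups. The mutants did not overlap either, with ob/ob above db/db. The db effect was -0.64 ± 0.14, the ob effect 0.67 ± 0.16 and the difference 1.30 ± 0.21, with an edgeR unadjusted p of 1.97e-05 and an adjusted p of 0.176. Leaving out each library in turn gave a difference of 1.23 to 1.39.

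Zfp260 (chromosome 7 from 29794202 to 29807048), a zinc finger protein, followed with 173, 228, 185 and 201 CPM in CT db and 128, 123.3, 138 and 164 CPM in db/db, and with 109, 97.5 and 77.2 CPM in CT ob and 171, 168 and 155 CPM in ob/ob. Here too the libraries of both models lay apart in opposite directions, and the mutant groups overlapped. The difference was 1.30 ± 0.22 with an edgeR adjusted p of 0.176. Zfp975 had 64.1, 109, 66.2 and 62.5 CPM in CT db, 37.7, 27.7, 26.5 and 51.5 in db/db, 24.7, 21.3 and 11.7 in CT ob and 46.7, 38.4 and 44.6 in ob/ob. Its levels fell into the same order and its difference of 2.22 ± 0.40 was the largest of the 10 genes with the smallest p and the higher ob effect (edgeR adjusted p = 0.189). Zfp genes resemble each other in sequence, so reads could be assigned to the wrong family member.

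Chmp5, a component of the ESCRT-III membrane-remodelling machinery, had 309, 493, 344 and 465 CPM in CT db and 252, 255, 229 and 256 CPM in db/db. In the ob model it had 148, 143 and 116 CPM in CT ob and 233, 256 and 171 CPM in ob/ob. The lean controls differed about as 403 to 136 CPM in the means, and the mutants as 248 to 220.2 CPM. The mutant effect difference was 1.40 ± 0.26 (edgeR adjusted p = 0.189). Gtf2a2, a subunit of the general transcription factor TFIIA, had 377, 508, 443 and 495 CPM in CT db, 334, 386, 332 and 388 in db/db, 193, 217 and 156 in CT ob and 347, 359.9 and 299 in ob/ob. The db model overlapped for Gtf2a2 and the ob model did not, and its difference of 1.17 ± 0.22 was made of an ob effect of 0.83 and a db effect of -0.34.

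The other genes among the 10 with the smallest p and the higher ob effect were Cript, Ap3s1 (a subunit of the AP-3 adaptor complex of vesicle transport), Zfp932, the transcribed pseudogene Zfp125 and Cenpq (a kinetochore protein). Their differences ranged from 1.15 to 2.09, with db effects of -0.98 to -0.55 and ob effects of 0.43 to 1.11. In each of the 10 genes CT ob lay entirely below CT db, while the controls lay apart in either direction for 21.2% of all genes. Picking genes for a positive difference itself favours a low CT ob, so nothing is read from this order. Several of these genes overlap another gene on the opposite strand (Ndufb6 with Smim27, Chmp5 with Bag1, Cenpq with Mmut, Zfp260 with Zfp566), and since the strand setting of the counting was not stated, their reads could not be told apart. The libraries of both models lay apart in opposite directions for Cript, Zfp932, Zfp125 and Cenpq too, while the db model overlapped for Ap3s1.

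Among the genes with the lower ob effect, Rnf213 (chromosome 11 from 119283926 to 119378244 in GRCm39), a large ubiquitin ligase, had the smallest p. It had 33.6, 33, 29.3 and 34.8 CPM in CT db and 63.8, 52.8, 64.4 and 37.1 CPM in db/db, and 80.6, 52.4 and 81.3 CPM in CT ob and 44.5, 44.1 and 50.0 CPM in ob/ob. Every db/db library lay above every CT db library and every ob/ob library below every CT ob library, the mirror image of Ndufb6, although the mutants overlapped. The db effect was 0.73 ± 0.19, the ob effect -0.63 ± 0.21 and the difference -1.36 ± 0.28 (edgeR adjusted p = 0.189).

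Unc5b (chromosome 10 from 60598372 to 60667396), a netrin receptor, was near the detection limit outside CT ob. It had 1.41, 0.214, 1.38 and 0.823 CPM in CT db, 2.57, 1.3, 1.74 and 3.14 in db/db, 11.4, 4.76 and 18.5 in CT ob and 2.26, 1.25 and 1.73 in ob/ob, and its difference was -3.93 ± 0.83. Septin9, a cytoskeletal GTP-binding protein, had 26, 18.4, 31.7 and 25 CPM in CT db, 29.1, 21.6, 26.5 and 32.3 in db/db, 66.7, 38.9 and 77.2 in CT ob and 25, 15.7 and 21.4 in ob/ob. For both genes CT ob was the one group that lay above all others, and the db effect was smaller than the ob effect (0.12 against -1.55 for Septin9, whose difference was -1.68 ± 0.36). The galectin gene Lgals1 had 144, 22.1 and 336 CPM in CT ob against 10.3 to 34.3 CPM in the other groups. The Lgals1 difference of -3.27 ± 0.88 moved to -2.25 without CT ob library 3, its highest library, and the groups overlapped.

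Pcolce, a secreted enhancer of procollagen processing, had a db effect larger than its ob effect. Its level was 6.22, 10.1, 12.4 and 9.05 CPM in CT db, 47.6, 19.9, 12.6 and 32.7 in db/db, 16, 16 and 31.9 in CT ob and 11.5, 7.1 and 13.4 in ob/ob. The libraries of both models lay apart in opposite directions, with a db effect of 1.58 ± 0.39, an ob effect of -0.99 ± 0.43 and a difference of -2.56 ± 0.58. Traf3ip2, an adaptor of interleukin-17 signalling, showed the pattern at a lower level, with 3.67, 3.64, 6.35 and 4.94 CPM in CT db, 10.3, 7.35, 6.53 and 11.3 in db/db, 7.9, 6.27 and 8.92 in CT ob and 3.82, 3.34 and 5.32 in ob/ob, and its controls overlapped. Tead2, a transcription factor of the Hippo pathway, had a db effect of 0.65 ± 0.25 and an ob effect of -0.66 ± 0.28, and the ob/ob and CT ob libraries overlapped. The remaining genes of the 10 with the lower ob effect were Tst (a mitochondrial sulfurtransferase), Nynrin, A930007A09Rik and Cdk5 (a cyclin-dependent kinase), with differences of -3.32 to -1.01. A930007A09Rik was at or below 6.52 CPM in all libraries.

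**Figure D2:**
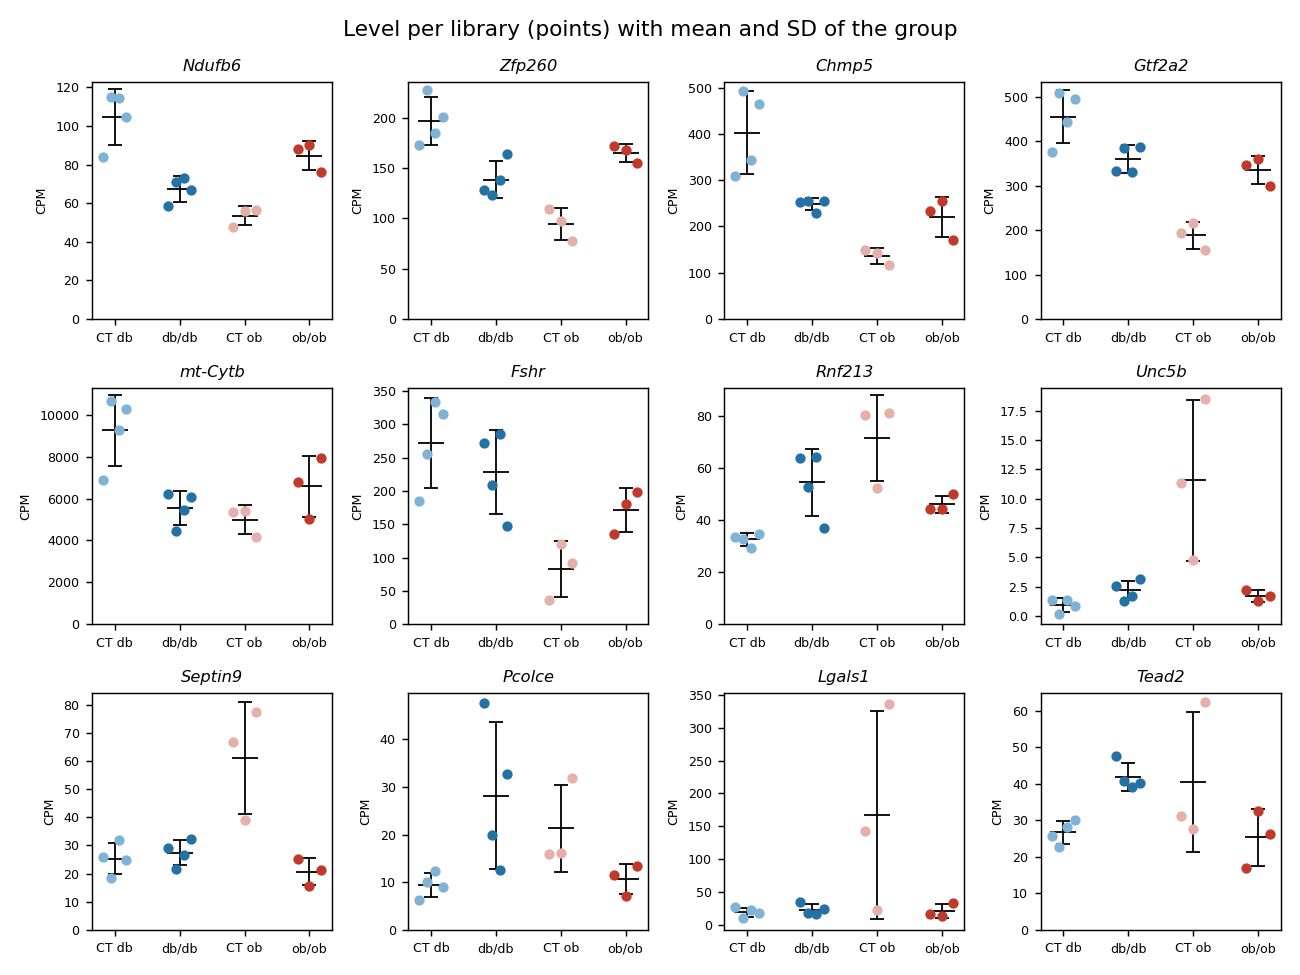
Level of 12 genes in CPM on linear axes, each point a library, with the mean and SD of the group (n = 4 for CT db and db/db, n = 3 for CT ob and ob/ob). In the first 5 panels (Ndufb6, Zfp260, Chmp5, Gtf2a2 and mt-Cytb) CT db is the highest group and CT ob the lowest or among the lowest, and from Rnf213 to Septin9 CT ob is the highest while the mutants lie closer together.

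The sequences upstream of the pair of genes with the smallest p in each direction are shown to set their composition beside the difference. The windows run 5′ to 3′ on the gene's strand, from 250 bases before to 50 after the start site of RefSeq (GRCm38.p6). Capitals mark the GC box GGGCGG, the CCAAT box and the core TGACG of the cyclic AMP response element on either strand, motifs that do not overlap each other in these windows and of which Zfp260 has none.
Ndufb6 (chr4:40279372-40279671, minus strand): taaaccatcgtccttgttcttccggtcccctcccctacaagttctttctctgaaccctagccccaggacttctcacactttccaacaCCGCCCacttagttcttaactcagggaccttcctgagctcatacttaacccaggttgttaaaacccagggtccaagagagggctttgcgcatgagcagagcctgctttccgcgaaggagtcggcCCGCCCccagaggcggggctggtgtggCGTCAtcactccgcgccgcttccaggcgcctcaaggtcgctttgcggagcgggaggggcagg
Zfp260 (chr7:30094826-30095125, plus strand): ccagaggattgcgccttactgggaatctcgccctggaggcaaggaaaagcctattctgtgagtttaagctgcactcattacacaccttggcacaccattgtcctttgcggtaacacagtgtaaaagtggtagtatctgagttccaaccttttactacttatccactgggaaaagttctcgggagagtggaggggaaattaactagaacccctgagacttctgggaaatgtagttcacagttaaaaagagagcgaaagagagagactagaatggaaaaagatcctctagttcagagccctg
Rnf213 (chr11:119389849-119390148, plus strand): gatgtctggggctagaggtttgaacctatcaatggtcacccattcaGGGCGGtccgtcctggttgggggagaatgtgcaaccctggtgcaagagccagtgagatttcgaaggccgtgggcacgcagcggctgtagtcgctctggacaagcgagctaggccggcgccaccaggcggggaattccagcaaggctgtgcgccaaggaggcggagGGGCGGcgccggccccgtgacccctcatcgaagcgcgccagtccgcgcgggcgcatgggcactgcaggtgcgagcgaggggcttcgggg
Unc5b (chr10:60831532-60831831, minus strand): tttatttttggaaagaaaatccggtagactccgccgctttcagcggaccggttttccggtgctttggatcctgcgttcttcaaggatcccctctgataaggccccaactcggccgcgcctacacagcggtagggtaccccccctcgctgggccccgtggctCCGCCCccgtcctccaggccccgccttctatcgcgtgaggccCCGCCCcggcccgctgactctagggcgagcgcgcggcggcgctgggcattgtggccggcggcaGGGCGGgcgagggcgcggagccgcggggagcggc
The GC content of these windows was 59.3% and 45.7% for Ndufb6 and Zfp260 and 67% and 69.7% for Rnf213 and Unc5b. Windows were matched by symbol for 480 of the 645 genes with the higher ob effect and 286 of the 376 with the lower ob effect. The CCAAT box was in 47% of the windows of the former, 30.8% of those of the latter, 38.1% of those of all tested genes and 37.4% of all windows. The GC box was in 57.3%, 60.8%, 62.8% and 35.7%, and TGACG in 31.9%, 25.3%, 30.9% and 20.8%. The orphan nuclear receptor motif AAGGTCA, read by SF-1 and LRH-1 in steroidogenic cells, was in 2.16%, 2.09%, 3.13% and 4.72%. A match describes the letters only.

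In the fit of all libraries more genes were called between the lean controls than between the mutants. Between CT ob and CT db 834 genes were called (6.63% of genes tested), 282 higher and 552 lower in CT ob, against 2 genes (0.0159%) between ob/ob and db/db. This contrast was not kept in fits of only the groups compared, which called 3 genes between the controls and 4 between the mutants. Such fits have their own estimate of spread, filter and scaling and fewer libraries. Which of these changed the calls was not tested. The unadjusted p was under 0.05 for 3390 genes between the controls and 1030 between the mutants. The median standard errors of both comparisons were alike, at 0.264 and 0.264, while the median absolute log2 difference was 0.371 and 0.199. The 2 genes called between the mutants, Grik3 (a glutamate receptor subunit of the kainate type) and the processed pseudogene Ndufs5-ps, were called between the controls with the same sign, lower in the ob model, and separated all libraries of one model from those of the other. Both overlap other genes on the same strand, Grik3 with Ftl2-ps and Mir692-2 and Ndufs5-ps with Zbtb20. How reads in the overlaps were assigned was not stated, so their source could not be told apart.

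The number of control calls rested on few libraries. Without CT ob library 3 it was 112, without CT db library 2 it was 138, without CT db library 4 it was 201, without CT ob library 1 it was 376 and without CT db library 3 it was 482. Without both CT ob library 3 and ob/ob library 2 it was 211. The excess of the control over the mutant difference was smaller by unadjusted p in that setting, with 2831 genes between the controls and 1706 between the mutants.

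Genes called between the controls were then followed into the mutants. The control gap uses no mutant library, but the call does, since all 4 groups shared the filter and the estimate of spread. Across the 834 genes the median gap between the controls was 0.96 and the median gap between the mutants, counted in the direction of the controls, was 0.24. The mutant gap kept the direction of the control gap in 81.4% of these genes, beside 65.3% of all tested genes, and 181 of the 834 had an unadjusted p under 0.05 between the mutants. It was smaller than the control gap in 98.4% of the 834 genes and in 67.5% of all genes, and the first share is raised by picking genes for a large control gap. For 386 of the 834 genes the mutant gap was under 0.25 of the control gap, and for 13 it was as large or larger.

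The effects in these genes were described beside the gaps. In the 552 genes lower in CT ob the median control difference was -0.98, the median ob effect 0.56, the median db effect -0.20 and the median mutant difference -0.19. In the 282 genes higher in CT ob these medians were 0.91, -0.50, 0.07 and 0.29. Both effects subtract the control values by which these genes were picked, so effects that point back come about by the choice alone and nothing is read from their sign or size. Of the 1021 genes with an unadjusted p under 0.05 in the mutant effect difference, 925 (90.6%) had the larger gap between the controls (convergent) and 96 the larger gap between the mutants (divergent). The control gap was the larger in 67.5% of all tested genes. Picking genes for unequal gaps raises that share further, so the 90.6% is a description only. Without CT ob library 3 and ob/ob library 2 the convergent genes were 613 and the divergent genes 158, and with transcript GC content taken into account they were 530 and 144.

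**Figure D3:**
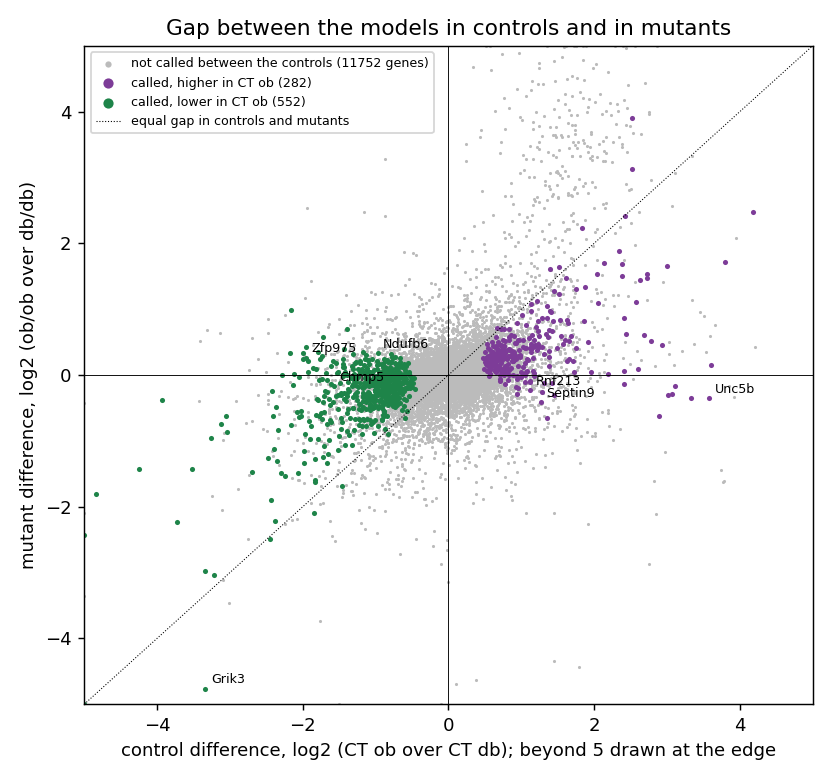
Gap between the models in the controls (log2 of CT ob over CT db, x axis) and in the mutants (log2 of ob/ob over db/db, y axis) for 12586 genes, with values beyond 5 drawn at the edge and the dotted line marking an equal gap. The called genes, 552 lower (green) and 282 higher (purple) in CT ob, lie mostly between the dotted line and the horizontal axis, and Grik3, called in both comparisons, lies beyond the dotted line.

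The genes called between the controls with the smallest p of the difference were Ndufb6, Zfp260, Zfp975, Gtf2a2 and Chmp5 (lower in CT ob) and Rnf213, Unc5b, Septin9, Tst and Nynrin (higher in CT ob). Their control differences ran from -1.95 to -0.97 and from 1.13 to 3.58, and their mutant differences from -0.17 to 0.33 and from -0.65 to -0.12. Tst had 34.2, 26.1, 29.5 and 29.9 CPM in CT db, 54.4, 50.2, 33.9 and 46.2 in db/db, 82.3, 41.6 and 98.5 in CT ob and 49.9, 39 and 39 in ob/ob, and mutant libraries of both models lay among each other. Nynrin kept a gap of -0.65 between the mutants, opposite in sign to its control difference of 1.36.

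The gene's base composition moved with all of these comparisons. In the quintile of genes with the lowest transcript GC content (28.3 to 43.5%) the median control difference was -0.44, the median ob effect 0.27 and the median db effect -0.11. The quintile with the highest GC content (54.6 to 73.7%) had medians of 0.37, -0.23 and 0.09. The median mutant difference ran only from -0.07 to 0.06 across the quintiles. Of the 645 genes with the higher ob effect 418 were in the lowest quintile and 9 in the highest, and of the 376 with the lower ob effect 11 and 177. The median GC content was 42.1% in the former, 54.1% in the latter and 48.8% in all tested genes. With a GC trend for each library in the fit, 133 genes were called between the controls instead of 834, 674 had an unadjusted p under 0.05 in the difference and 78.6% of those were convergent. Whether the shift with GC content came from the cells or from the libraries was not tested.

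**Figure D4:**
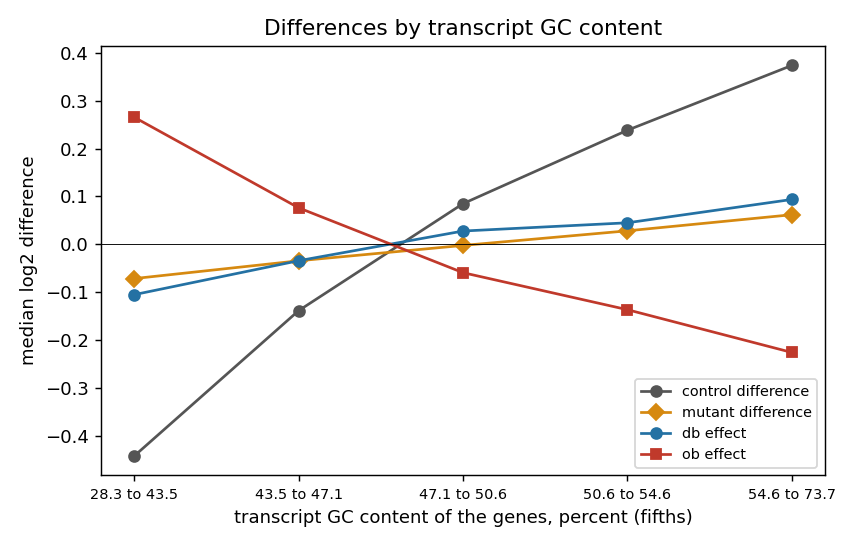
Median log2 difference of the genes in quintiles of transcript GC content (x axis in percent) for the control difference, the mutant difference, the db effect and the ob effect. The control difference climbs from -0.44 to 0.37 and the ob effect descends from 0.27 to -0.23, while the mutant difference and the db effect stay within -0.11 and 0.09.

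Gene classes were described by the medians of their tested members, beside a median difference of -0.04 over all tested genes. The 38 classes with at least 8 tested members had 11 that are described one by one, being the 5 with the highest and the 5 with the lowest medians and steroid synthesis, and the medians of the other 27 lay between -0.25 and 0.05. No member of any class was called for the difference.

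Proteins encoded by the mitochondrial genome, the core subunits of the respiratory chain, had the highest median. The 8 tested of 13 (the other 5 had too few counts) gave a median db effect of -0.28, a median ob effect of 0.36 and a median difference of 0.54, and 4 had an unadjusted p under 0.05 with the higher ob effect, beside 5.12% of all genes. Their mean log2 CPM was 10.43, 11.06, 10.43 and 10.81 in CT db, 10.52, 10.47, 10.36 and 10.57 in db/db, 10.10, 10.21 and 9.83 in CT ob and 10.34, 10.45 and 10.27 in ob/ob. CT db had the highest mean and CT ob the lowest, and each ob/ob library lay above each CT ob library. Cytochrome b, mt-Cytb, had 6863, 10626, 9249 and 10250.5 CPM in CT db, 6211, 4452, 5472 and 6055 in db/db, 5373, 5422 and 4186 in CT ob and 6784, 5033 and 7931 in ob/ob. Its difference was 1.14 ± 0.29 (edgeR adjusted p = 0.276), and those of mt-Co1, mt-Nd1 and mt-Nd5 were 1.29 ± 0.48, 0.75 ± 0.35 and 0.69 ± 0.29. The mt-Cytb libraries lay apart in the db model and overlapped in the ob model. The transcripts have a median GC content of 36.4%, and with the GC trend in the fit the class median was -0.07. By contrast, the 38 tested nuclear subunits of complex I had a median difference of -0.21 and those of complexes II to V (45 tested) -0.23, so that Ndufb6, with 1.30, had the other sign. Both nuclear classes stood out in CT ob library 3. Its complex I mean was 7.29 log2 CPM, against 6.33 and 6.44 in the other CT ob libraries. For complexes II to V it was 7.76, against 6.92 and 7.01. The part of that library in both medians is not given here.

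Zinc finger genes of the Zfp series, mostly DNA-binding repressors, were the largest class that stood out by count. Of 411 genes 345 were tested, and 64 of these (18.6%) had the higher ob effect at an unadjusted p under 0.05, beside 5.12% of all genes, and 6 (1.74%) the lower, beside 2.99%. The median db effect was -0.14, the median ob effect 0.20, the median control difference -0.31 and the median mutant difference 0.01. Between the controls 45 were called, 43 of them lower in CT ob, a share of 13% beside 6.63%. The class mean in log2 CPM was 4.14 to 4.42 in CT db, 3.87 to 4.22 in db/db, 3.56 to 4.10 in CT ob and 4.05 to 4.19 in ob/ob, with the lowest value in CT ob library 3. Zfp959 had 30.2, 45.2, 40.6 and 37.8 CPM in CT db, 24.4, 13.4, 15.7 and 25.7 in db/db, 16, 13 and 8.23 in CT ob and 22.4, 18.7 and 24.5 in ob/ob, apart in opposite directions in the models, and Zfp932 had a difference of 1.81 ± 0.37. The class value moved with GC content, as its 167 members in the lowest quintile had a median difference of 0.79 beside 0.40 for all genes of that quintile, and its 36 members in the highest quintile -0.31 beside -0.31. With the GC trend in the fit the class median was 0.16, and with each library left out it lay between 0.24 and 0.47. Without CT ob library 3 and ob/ob library 2, 50 of 345 had the higher ob effect at an unadjusted p under 0.05. Over all genes tested in that setting it was 552 of 12990. With the GC trend it was 33 of 345, beside 381 of 12586 over all genes.

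Cholesterol synthesis and uptake genes, which supply the substrate of steroids, had a median db effect of -0.09 and a median ob effect of 0.25 over 30 of 32 members. The median difference of 0.46 was within the spread between libraries of a group (SD of the class mean 0.48). It became -0.09 without ob/ob library 2, whose class mean of 6.41 log2 CPM exceeded the other ob/ob libraries at 5.34 and 5.61. Sc5d, a late enzyme of the pathway, had 68.6, 81 and 58.7 CPM in CT ob and 104, 92.2 and 122 in ob/ob, against 115, 137, 146 and 166 in CT db and 152, 116, 130.1 and 138 in db/db, which overlapped. Its difference was 0.68 ± 0.24, that of the sterol isomerase Ebp -0.66 ± 0.26 in the other direction, that of Insig1, which retains the sterol sensor in the endoplasmic reticulum, 0.49 ± 0.26 and that of squalene epoxidase Sqle 0.73 ± 0.50. Members with an unadjusted p under 0.05 numbered 1 in each direction.

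Glycolysis genes had a median db effect of 0.03 and a median ob effect of 0.32 over 28 of 31 members, and the median difference of 0.33 was 0.04 without ob/ob library 2. The monocarboxylate transporter Slc16a1 had 263, 239, 362 and 313 CPM in CT db, 296, 282, 305 and 299 in db/db, 198, 185 and 155 in CT ob and 246, 298 and 293 in ob/ob. The CT ob libraries were below all others, and the difference of 0.63 ± 0.22 came from the ob effect of 0.64. Pdk2, which restrains pyruvate entry into mitochondria, differed the other way by -1.05 ± 0.40, and the bifunctional regulators Pfkfb2 and Pfkfb1 by 1.09 ± 0.50 and 0.87 ± 0.43.

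Genes of TGF-beta, BMP, inhibin and AMH signalling, the growth factors by which GCs and the oocyte act on each other, had a median difference of 0.13 over 33 of 38 members and no opposite medians, with 0.17 for the db effect and 0.14 for the ob effect. A higher ob effect at an unadjusted p under 0.05 was found for 3 members (9.09%, beside 5.12% of all genes). The ligand Bmp3 had 175, 231, 516 and 433 CPM in CT db, 269.9, 414, 460.0 and 313 in db/db, 67.5, 148 and 88.5 in CT ob and 226, 623 and 204 in ob/ob, and its difference was 1.69 ± 0.61. The type I receptor Tgfbr1 and the type II receptor Bmpr2 had differences of 0.63 ± 0.27 and 1.12 ± 0.52. In all of these CT ob was the low group and the db effect was small (0.11, -0.04 and 0.25). Inhba, the activin and inhibin beta A subunit that rises with follicle growth, spread widely within groups, from 78 to 2559 CPM in CT db and from 60.8 to 1529 CPM in ob/ob, and its difference of 3.03 ± 1.68 did not exceed that spread (edgeR adjusted p = 0.65).

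Extracellular matrix genes had the opposite order, with CT ob as the high group. The filter asked for enough counts in only as many libraries as the smallest group holds. Matrix genes low elsewhere could therefore pass through CT ob alone, which favours a high CT ob among those tested. Its part in the values below was not tested. The 19 tested of 44 collagen genes had a median db effect of 0.25, a median ob effect of -0.66, a median control difference of 1.54 and a median mutant difference of 0.01. The difference between the effects had a median of -0.84. It lay above 0 for 1 tested collagen, beside 5875 of all 12586 genes tested, and below 0 for the rest. A lower ob effect at an unadjusted p under 0.05 was found for 4 collagens (21.1%, beside 2.99% of all genes), and 4 (21.1%, beside 6.63%) were called between the controls. Col4a1 and Col4a2, the chains of basement membrane collagen IV that share a promoter region, had 5.21, 70.5 and 16.1 CPM and 5.4, 47.9 and 8.23 CPM in CT ob. Outside CT ob they did not exceed 4.24 and 3.86 CPM, and CT ob library 2 was the high one. Col18a1 had 1.13, 0, 3.59 and 0.274 CPM in CT db, 18, 1.3, 0 and 1.57 in db/db, 24.7, 19.6 and 6.18 in CT ob and 3.82, 0 and 1.36 in ob/ob, and a single db/db library gave its db effect. Col16a1 had 29.5, 5.77 and 11.3 CPM in CT ob and 0.557 to 5.37 CPM elsewhere.

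Basement membrane and laminin genes, 22 tested of 24 and partly shared with the collagens, had a median difference of -0.73, a median db effect of 0.15 and a median ob effect of -0.57. A lower ob effect at an unadjusted p under 0.05 was found for 6 of them (27.3%, beside 2.99%). Laminin alpha 1, Lama1, had 147, 92.5, 117 and 115 CPM in CT db, 135, 117, 162 and 137 in db/db, 229, 146 and 223 in CT ob and 141, 154 and 127 in ob/ob. CT ob libraries 1 and 3 were above all others, and its difference was -0.72 ± 0.27. Perlecan, Hspg2, had 31.6, 16.1, 19.9 and 36.2 CPM in CT db, 40.3, 29, 35.2 and 24.2 in db/db, 31.8, 68.4 and 50.4 in CT ob and 27.6, 20.3 and 34 in ob/ob, with a difference of -1.18 ± 0.44. Class means averaged over the libraries of a group were highest in CT ob for both classes. For the collagens they ran from 2.59 to 3.84 log2 CPM in CT ob and from 1.87 to 2.53 in CT db. They ran from 1.76 to 2.99 in db/db and from 1.85 to 2.86 in ob/ob, so CT ob overlapped both mutant groups. The classes kept their sign with each library left out, between -1.17 and -0.67 for collagens and between -1.06 and -0.42 for basement membrane genes. The summed stromal markers were highest in CT ob library 2 (171 CPM). Their median was 40.2 CPM in CT db, 70.4 CPM in db/db, 60.7 CPM in CT ob and 50.0 CPM in ob/ob. The summed endothelial markers lay above all other groups in CT ob, with a median of 25.1 CPM, and the stromal list holds Col1a1, Col1a2 and Col3a1. Their part in the result was not tested.

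Hox genes, the homeobox regulators of body position, had the lowest median, -1.21, over only 12 of 39 members that passed the filter. Hoxd11 had 0, 0.214, 16.3 and 0 CPM in CT db and 0.428, 0, 60.5 and 7.85 in db/db, and 1.16, 7.52 and 2.74 in CT ob and 0, 0.139 and 0.371 in ob/ob. Hoxd10 was high in the same libraries, from 56.6 CPM in db/db library 3 to 0 in CT db libraries 1 and 4. In the db model, library 3 of each group thus held most of the level of Hoxd11 and Hoxd10. In the ob model, all ob/ob libraries lay below all CT ob libraries for Hoxd11, Hoxc10 and Hoxc6, but not for Hoxd10. The ob/ob libraries had at most 3 counts of Hoxd11 and at most 1 of Hoxc10. The differences of Hoxd11 (-6.21 ± 2.60), Hoxd10 (-4.80 ± 2.24) and Hoxc10 (-5.79 ± 2.2) had wide errors, and that of Hoxc6 was -1.68 ± 0.79. Dropping any 1 library kept the class median between -2.14 and -0.48. Without CT ob library 3 and ob/ob library 2 the class median was 0.02.

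Cytosolic ribosomal protein genes had a median db effect of 0.14 and a median ob effect of -0.26. Of the 83 tested members 58 were higher in db/db and lower in ob/ob than in the controls, beside 3343 of all 12586 genes tested. No ribosomal member had an unadjusted p under 0.05 for the difference, the smallest p being that of Rpl22l1, whose difference of 0.80 ± 0.42 had the other sign. The class mean was 8.90 log2 CPM in CT ob library 3 and at most 8.32 in all others, and without that library the median difference turned from -0.38 to 0.13. Rps15 shows this, with 196, 251 and 826 CPM in CT ob and 179.8 to 313 CPM elsewhere. Rpl13a and Rpl23a had differences of -0.59 ± 0.32 and -0.65 ± 0.35. Ribosomal protein genes have many processed pseudogenes with which they can share reads.

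Genes of the NLRP3 inflammasome, the innate immune complex that activates caspase-1 and that the study followed in the ovary, were tested for 9 of 14 members. Their median db effect was 0.32, the median ob effect 0.08 and the median difference -0.28, and 0 members had an unadjusted p under 0.05. Gsdmd, the pore-forming gasdermin, had 15.3, 15.6, 14.6 and 13.7 CPM in CT db, 24.4, 13.8, 14.4 and 20.7 in db/db, 17.9, 14.3 and 30.2 in CT ob and 14.2, 13.9 and 21.8 in ob/ob, and the groups of each model overlapped. The NF-kB subunits Nfkb1 and Rela had differences of -0.42 ± 0.33 and -0.28 ± 0.26 and the cytokine Il18 -0.85 ± 1.05. The difference lay above 0 for 1 of the 9 members, beside 5875 of all 12586 genes tested, and below 0 for the rest. The SD of the class mean between libraries of a group was 0.15. The class means overlapped within each model.

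**Figure D5:**
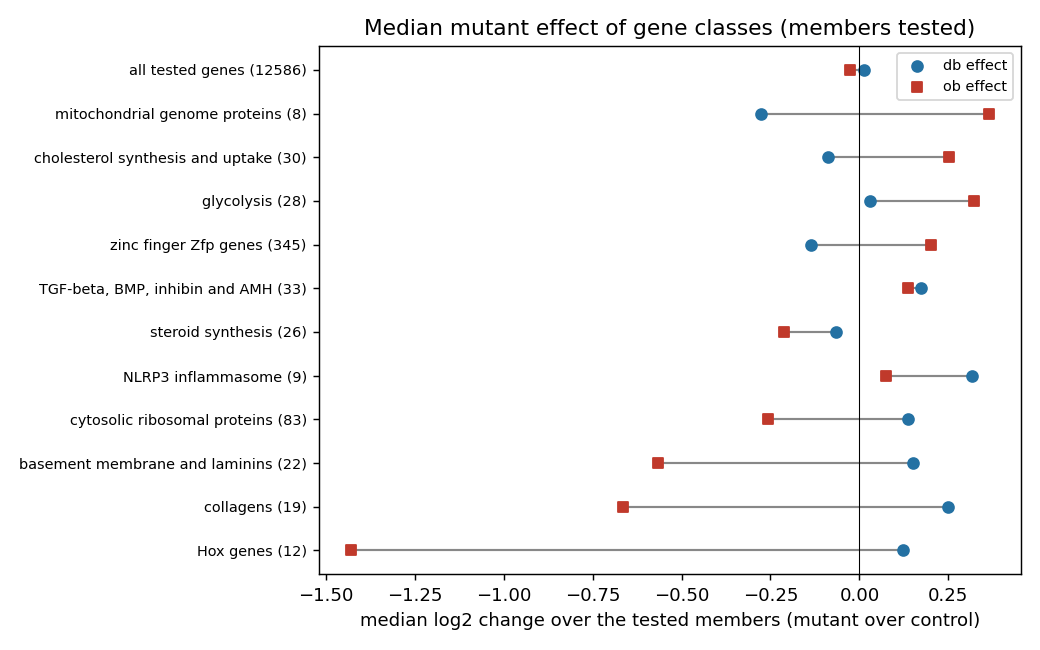
Median log2 change (mutant over control) of the tested members of 11 gene classes and of all tested genes in the db model (blue circles) and the ob model (red squares), with the number of members in brackets. The medians lie on opposite sides of 0 for the mitochondrial genome, Zfp, cholesterol, ribosomal, basement membrane, collagen and Hox classes, and on the same side for glycolysis, TGF-beta, steroid synthesis and the NLRP3 inflammasome.

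Steroid synthesis genes had a median difference that rounded to 0 over 26 of 28 members, with a median db effect of -0.06 and a median ob effect of -0.21. Single members differed in both directions. Akr1c14, a hydroxysteroid dehydrogenase that reduces progestins and androgens, had 1228, 1457, 1185 and 1153 CPM in CT db, 1231, 799.7, 1164 and 924 in db/db, 788, 514 and 524 in CT ob and 679.7, 1328 and 1134 in ob/ob. The CT ob libraries lay below all CT db libraries, the mutants overlapped, and the difference was 1.07 ± 0.33 (edgeR adjusted p = 0.423). Star, which moves cholesterol into mitochondria, had 4.24, 15.6, 8.56 and 10.4 CPM in CT db, 23.1, 13.4, 3.92 and 11.9 in db/db, 6.94, 24.1 and 20.9 in CT ob and 8.16, 3.2 and 4.21 in ob/ob, with a difference of -2.15 ± 0.79. Star is also a theca marker, and its low level here varied within every group. Akr1c13 had 16.7, 4.5, 3.04 and 2.74 CPM in CT db against 0.857, 0, 0.87 and 1.26 in db/db, and 14.7, 10.5 and 15.8 in CT ob against 7.82, 1.95 and 14.7 in ob/ob, so that its gap lay between the mutants (3.35) rather than between the controls (1.02).

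Genes of steroid production that the study displayed were measured there in these same samples, so their values here are no independent evidence. As 1 name given there can be read as Insr or Irs1, both are included here, which makes 7 genes. Fshr (chromosome 17 from 89292380 to 89508139 in GRCm39), the receptor of follicle stimulating hormone, had 185, 255, 333 and 316 CPM in CT db, 272, 209, 285 and 148 in db/db, 36.6, 121 and 91.6 in CT ob and 135, 181 and 199 in ob/ob. The db model overlapped, the ob/ob libraries lay above the CT ob libraries, and CT ob lay below CT db (control difference -1.72, edgeR adjusted p = 0.0163). The db effect was -0.25 ± 0.31, the ob effect 1.05 ± 0.36 and the difference 1.31 ± 0.47, with an edgeR unadjusted p of 0.0137 and an adjusted p of 0.523. It was the only one of the 7 with an unadjusted p under 0.05 for the difference.

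Cyp19a1, the aromatase, had 19.5, 15.6, 107 and 29.9 CPM in CT db, 19.7, 23.4, 105 and 6.59 in db/db, 10.6, 17.8 and 16.5 in CT ob and 18.1, 84.1 and 32.9 in ob/ob. A single library held the high value in each of CT db, db/db and ob/ob, and the difference of 1.76 ± 1.14 (edgeR adjusted p = 0.688) ranged over 0.79 to 3.0 with each library left out. Hsd17b3, which makes testosterone, had 1.1 to 12.7 CPM over all libraries and a difference of -1.27 ± 0.82, and Igf1r, the receptor of insulin-like growth factors, one of -0.58 ± 0.36. The signs of Insr (0.11 ± 0.44) and Cyp1b1 (-0.01 ± 0.33) depended on which library was left out, and for Cyp1b1, which hydroxylates oestrogens, both effects were -0.50 and -0.51, so that it was lower in both mutants. Irs1, the adaptor of the insulin receptor, had a difference of 0.44 ± 0.43. Except for Cyp1b1, the fitted db and ob effects had opposite signs for each of the 7, but at least 1 of both effects was within its SE of 0 for Fshr, Igf1r, Cyp19a1, Insr and Irs1. These were the db effects of Fshr (-0.25), Cyp19a1 (-0.16 ± 0.74) and Irs1 (-0.02 ± 0.28), the ob effect of Igf1r (-0.07 ± 0.27) and both effects of Insr (-0.04 ± 0.29 and 0.07 ± 0.33). Hsd17b3 had a db effect of 0.61 ± 0.57 and an ob effect of -0.66 ± 0.58.

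Genes that were lower in both mutants served as a contrast. Akr1c18, which inactivates progesterone, had 3.39, 3.64, 37.5 and 6.86 CPM in CT db, 0.857, 0.865, 1.31 and 0 in db/db, 3.66, 30.8 and 4.12 in CT ob and 0.347, 0.139 and 1.61 in ob/ob. Mutant libraries lay below the control libraries in both models, with effects of -4.12 and -4.09 that depend on the prior count, as all db/db libraries were at 3 counts or fewer. The difference of 0.03 ± 1.51 ranged over -1.49 to 1.75 with each library left out. Hs3st3b1, a heparan sulfate sulfotransferase, had 34.2, 22.5, 14.4 and 32.6 CPM in CT db, 8.14, 10.4, 13.9 and 7.85 in db/db, 36.4, 30.6 and 3.43 in CT ob and 4.17, 4.04 and 2.1 in ob/ob, with CT ob library 3 among the mutants. Its effects were -1.37 ± 0.51 and -2.79 ± 0.60, and the controls of both models started from a like level (control difference -0.12).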

How the data were processed

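RNA-seq counts of 14 GC libraries were analysed. The authors deposited raw counts per gene, made per the paper's methods from single reads with cutadapt, STAR on GRCm39 and featureCounts. The submitters' processing notes name FastQC, Trim Galore 0.6.2, HISAT2 2.1.0 and GRCm38 instead. The strand setting and the treatment of multi-mapping reads were not given in the sources used here. Columns were assigned to groups by name. Of the 55414 identifiers in the table, 98.8% had a symbol and position in GENCODE M39, and the others were kept under their identifier. Genes were kept by filterByExpr (minimum count 10, minimum total 15) and tested with edgeR 4.0.16 in R 4.3.3 (TMM, quasi-likelihood, all 14 libraries in 1 fit). DESeq2 1.42.0, limma-voom (limma 3.58.1), other scalings and filters, and leaving out each library were alternatives. The GC trend (lowess of log2 CPM on transcript GC content) and leaving out CT ob library 3 with ob/ob library 2 were chosen after seeing the data. Scripts were tested on simulated data. The gene classes and members were chosen with earlier results of these data known. Named were Lep, Lepr, the genes the study plotted as opposing or listed in both models, the 10 genes with the smallest p in each direction, the 5 so ranked among control calls in each direction, up to 5 in each opposite-sign pattern, and 4 members of each class described. Any other gene was named after its values were seen. Reads had no molecular identifiers, so depth limits cover counting error only.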

Additional observations from a re-analysis of the deposited data

Results flagged for a closer look

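The libraries of both models lay apart in opposite directions for 60 genes, 50 with db/db below CT db and ob/ob above CT ob and 10 with the reverse, although the mutant effect difference was called for none of them by edgeR. The control libraries lay apart as well for 57 of the 60, beside 21.2% of all genes, and the mutant libraries for 11, beside 9.92%. The genes were picked by where the control and the mutant libraries lay. That itself favours controls that lie apart and mutants that lie apart, so neither of these shares is support.

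Among the genes and classes named, 161 groups of 4 libraries were searched for a library far from the other 3, and 20 had one. About 1 in 20 would hold for independent, normally distributed values. These groups share the same libraries and include genes picked for a small p, so no excess is read from the count. In CT db a high library stood out for Cyp19a1 (107 CPM), Irs1 (29.3), Akr1c18 (37.5), Zfp975 (109), Hoxc10 (4.42), Hoxd11 (16.3), Hoxd10 (22.1), Insig1 (235) and Akr1c13 (16.7), and a low library for Nynrin (2.14) and Col4a2 (0.428). The CT db class means had a low library for the TGF-beta, BMP, inhibin and AMH genes (5.57 log2 CPM) and a high one for the Zfp genes (4.42 log2 CPM). In db/db a high library stood out for Cyp19a1 (105 CPM), Ap3s1 (154), Hoxd11 (60.5), Col18a1 (18) and Il18 (10.7), and a low library for Chmp5 (229) and Cript (117). CT db library 3 held the high value for Cyp19a1, Akr1c18, Hoxc10, Hoxd10 and Hoxd11.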

How the results depend on the processing

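No paired analysis was possible because the columns of the count table carry none of the replicate numbers of the labels. RLE and upper quartile scaling, limma-voom, robust fitting and leaving out the 18S gene kept the calls of the 5 comparisons, the number of genes with an unadjusted p under 0.05, the convergent and opposite-sign shares, the control and mutant gaps and the medians of the described classes within 1.5 times or 1 SD. The counts of non-overlapping genes, of sign patterns and by GC content were not recomputed. Without the filter on low counts the calls were 329 (difference), 223 (db effect), 488 (ob effect), 1727 (controls) and 535 (mutants), the genes with an unadjusted p under 0.05 numbered 2431, 75.0% of these were convergent and 83.0% had opposite signs. Of the 20 genes that are the 10 with the smallest p in each direction, 16 were among the 329 and 15 among the 72 of DESeq2. DESeq2 called 72, 21, 86, 1563 and 72 in the same order, and separate fits 1 (db effect), 0 (ob effect), 3 (controls) and 4 (mutants). With library size only, 261 genes were called between the controls, with a median gap of 1.23. Downsampling to the smallest library gave 0 (ob effect) and 530 (controls) and a convergent share of 85.2%, and requiring 10 counts in every library gave 1 (mutants) and 92.4%. With CT ob library 3 and ob/ob library 2 out, calls were 0 (ob effect) and 211 (controls), the convergent share was 79.5% and the class medians were 0.017 (Hox), 0.054 (ribosomal) and -0.028 (cholesterol). With the GC trend, 133 genes were called between the controls (median gap 1.23), 674 had an unadjusted p under 0.05 in the difference, 78.6% of these were convergent and the mitochondrial class median was -0.070.

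Leaving out each library in turn gave 0 to 1 calls for the difference (Ap3s1, without db/db library 1), 0 to 1 for the db effect, 0 to 5 for the ob effect, 112 to 1196 for the controls and 2 to 3 for the mutants. Genes with an unadjusted p under 0.05 numbered 711 to 1504, the convergent share was 81.1 to 94.2% and the opposite-sign share 84.0 to 95.2%. Class medians ran from -2.14 to -0.48 (Hox), -0.63 to 0.13 (ribosomal), -0.42 to -0.18 (NLRP3), 0.037 to 0.47 (glycolysis) and -0.089 to 0.77 (cholesterol). Among single genes, signs turned for those near 0. Insr ran from -0.13 to 0.42 with each library left out, with -0.017 at the reversal nearest 0. Cyp1b1 was 0.0052 with RLE or DESeq2, 0.012 with limma-voom, 0.0057 with the 18S gene out, 0.078 without the filter and -0.15 to 0.26 with each library left out. Akr1c18 was -0.046 with library size only, -0.038 with DESeq2, -0.32 with limma-voom, -0.11 with the GC trend and -1.49 to 1.75 with each library left out. The causes of these shifts were not tested. Depth limited the Hox, collagen and Unc5b values, whose levels in several libraries lay at or under 3 counts.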

Other observations

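Other classes were looked at after their values were seen. Of 55 tested spliceosome proteins 9 (16.4%) had the higher ob effect at an unadjusted p under 0.05, beside 5.12% of all genes, although the class median was -0.15. Ubiquitin-conjugating enzymes had 4 of 30 (13.3%) in that direction and none in the other. ADAMTS, MMP and TIMP genes, which remodel matrix, had 4 of 19 tested members (21.1%) with the lower ob effect, beside 2.99% of all genes, and 1 (5.26%) with the higher, beside 5.12%. Genes within 20 Mb of Lepr and of Lep, where the strains can carry linked alleles, had median differences of -0.03 and 0.04 over 175 and 132 tested genes, beside -0.04 over all genes, and 11 and 8 of them were called between the controls (6.29% and 6.06%, beside 6.63%). Luteal and prostaglandin genes had median db and ob effects of -0.81 and -0.82 over 14 tested members, and the median difference between the effects was -0.19. Oocyte markers had a median difference of 1.45 with 0 of 13 tested markers at an unadjusted p under 0.05.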
